A study of Mus musculus with 2 samples.

Results

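Prostanoids are lipid signals made from arachidonic acid, and the 10 genes described here cover their synthesis, their breakdown and the receptors through which they act. They were Ptgs1, Ptgs2, Ptges, Ptgis, Ptgds, Hpgd, Ptger2, Ptger3, Ptger4 and Ptgir, out of 32285 genes in the matrix. The choice was made by symbol and not by a rule on their values, though with earlier results of these data known. They were followed in knee joint cells with at least 500 detected genes, at least 1000 unique molecular identifiers (UMIs, 1 per captured RNA molecule) and at most 10% mitochondrial UMIs. The filters and the removal of 3 called doublets left 15171 of 24203 cells.

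The study measured single-cell RNA in hindlimb knee joints of Col12a1 knockout and wild-type mice of both sexes at postnatal day 7. Col12a1 encodes the chain of collagen XII, a collagen found on the surface of collagen fibrils. Skin and paws were removed, collagenase II at 4 mg/mL was applied for 6 h, and 3' libraries were made with 10x Genomics v3 chemistry. The sources used here give neither a strain nor the design of the knockout allele. The labels describe 2 experiments, the first with 1 knockout and 1 wild-type sample and the second with 2 of each. Barcodes of the single merged matrix carry the ending 1 or 2, here called barcode sets 1 and 2. Neither genotype nor experiment is assigned to a set by any label. With cells of both genotypes mixed in what had to be taken as 1 sample, knockout was not compared with wild type. All comparisons below are between cell classes, with both barcode sets given side by side.

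The 7158 kept cells of set 1 had 10960.5 UMIs at the median, and the 8013 of set 2 had 9623. Clustering, from which the 10 genes were left out, gave 35 clusters in 21 classes. Classes named "-like" carried the markers of that cell type, and 3 clusters without such a name are called by a leading gene. The Cxcl5-led and Ppbp-led clusters missed the marker rule for a name, and the Dnah12-led cluster was left unnamed for its leading genes. The largest of these, the Cxcl5-led cluster of 1326 cells, was led by Cxcl5, Il1rl1, Saa3 and Csf3. It summed 3771 UMIs per 1000000 (CPM) over 7 fibroblast markers, none of them at 0, and 4 of those were called higher than in other cells. The Ppbp-led cluster of 348 cells was led by Ppbp, Car1 and Pf4, and all 6 megakaryocyte or platelet markers were called higher in it. Only 1 of the 6 both reached a log2 ratio of 1 and was detected in at least 10% of its cells. The Dnah12-led cluster of 153 cells was led by Dnah12 and Wdr95.

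Cyclooxygenases turn arachidonic acid, which phospholipases release from membranes, into an unstable intermediate that terminal synthases convert into prostaglandin E2, prostacyclin and other prostanoids. Ptgs1 encodes the cyclooxygenase that many tissues make at rest, and Ptgs2 the one that inflammatory stimuli induce. In joints, prostaglandin E2 and prostacyclin are known for their part in pain and swelling, and cyclooxygenases are the targets of nonsteroidal anti-inflammatory drugs.

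The start regions of both cyclooxygenase genes and of Ptges are shown, since these 3 genes carry the contrast between cell classes described below. Each run is the 250 bases before the RefSeq transcription start on mouse GRCm38.p6, read 5' to 3' on the gene's strand. They lie at chr2:36230176-36230425 (plus strand) for Ptgs1, chr1:150099781-150100030 (plus strand) for Ptgs2 and chr2:30903298-30903547 (minus strand) for Ptges. Capitals mark matches to the motifs searched.
Ptgs1: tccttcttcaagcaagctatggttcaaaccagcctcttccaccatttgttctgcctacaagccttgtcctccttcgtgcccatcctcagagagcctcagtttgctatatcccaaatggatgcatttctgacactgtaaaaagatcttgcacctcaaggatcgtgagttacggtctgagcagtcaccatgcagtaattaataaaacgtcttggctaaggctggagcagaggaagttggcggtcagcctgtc
Ptgs2: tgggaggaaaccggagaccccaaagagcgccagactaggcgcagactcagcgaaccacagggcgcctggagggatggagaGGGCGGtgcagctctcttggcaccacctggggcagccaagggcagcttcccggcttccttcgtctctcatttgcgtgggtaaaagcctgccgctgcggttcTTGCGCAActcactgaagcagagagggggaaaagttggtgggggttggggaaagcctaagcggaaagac
Ptges: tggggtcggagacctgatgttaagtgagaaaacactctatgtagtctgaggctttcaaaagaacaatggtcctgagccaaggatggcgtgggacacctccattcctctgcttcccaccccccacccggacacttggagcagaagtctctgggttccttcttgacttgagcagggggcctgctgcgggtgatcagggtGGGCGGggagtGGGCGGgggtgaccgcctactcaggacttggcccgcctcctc
The motifs were TATAAA of the TATA box, TGACG of CREB sites, CACGTG of the E-box, TGANTCA of AP-1 sites, GGGCGG of SP1 sites, CCAAT of NF-Y sites, TTGCNNAA of C/EBP sites and the NF-kappaB consensus, on both strands of a window of 300 bases that also takes in the 50 bases after the start. Ptgs2 held GGGCGG beginning 170 bases before its start and TTGCNNAA beginning 69 bases before it. It also held TGACG 14 bases and CACGTG 17 bases after its start, which overlap each other. Ptges held GGGCGG 53 and 42 bases before its start, and none of the 8 motifs was found for Ptgs1. The base composition was 61.6% G or C for Ptgs2, 59.6% for Ptges and 48% for Ptgs1. Among 32851 mouse promoter windows of the same length, 35.66% held GGGCGG, 20.81% TGACG, 10.8% TTGCNNAA and 7.15% CACGTG. These matches describe letters only. The RefSeq start of Ptges used here lies 26566 bases from the start of its GENCODE gene model. A promoter was matched for 9 of the 10 genes, all but Ptgis.

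A level is the sum of a gene's UMIs in a class divided by the class total and scaled to 1000000 (CPM), with exact Poisson intervals. A class was compared with all other kept cells together by the ratio of these levels. A gene was called higher or lower where both sides together held at least 100 UMIs, the ratio was at least 2 or at most 0.5, its 95% interval left out 1, and both barcode sets had the same direction. The intervals cover counting error only, since cells of 1 sample are not replicates, and no p-value is given. Of the 210 pairs of a gene and a class, 29 were called higher and 114 lower. Over all genes tested, 3.92% to 22.1% were called higher and 11.3% to 70.9% lower, depending on the class. Each of the 10 genes was called higher in at least 1 class, and the share of all genes with such a call was not counted. The class with the highest level was the same in both sets for 4 genes, Ptgs1, Ptgs2, Ptgis and Ptger3.

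**Figure D1:**
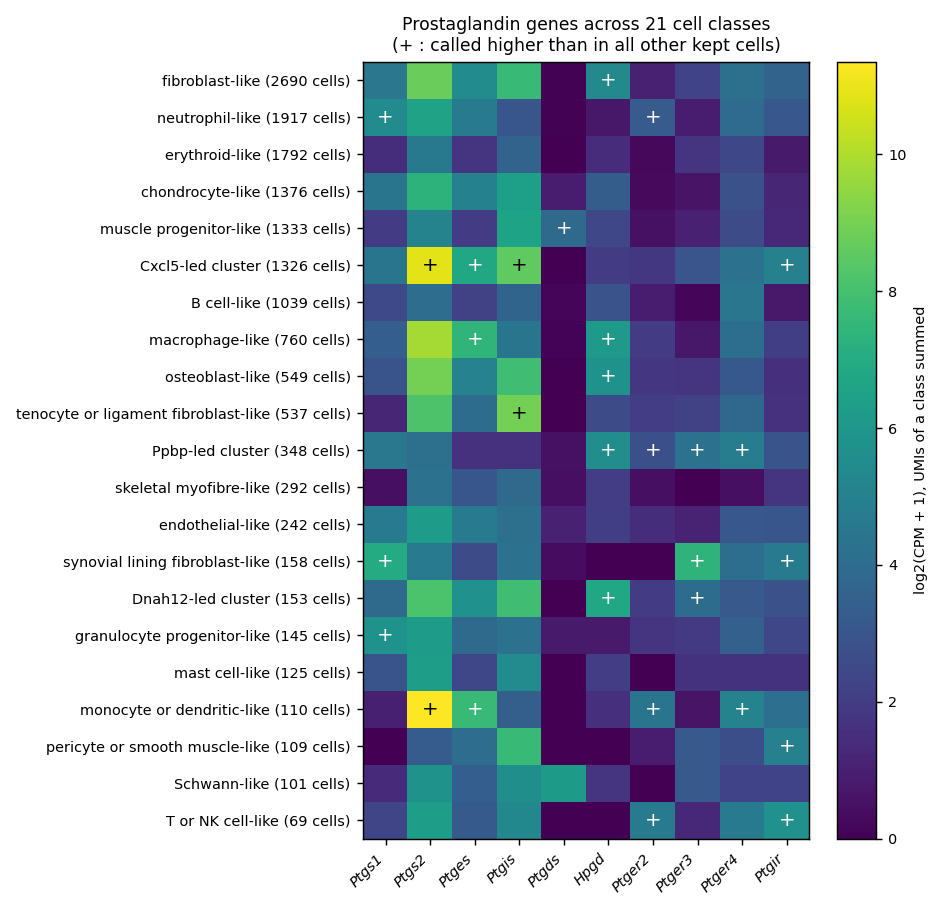
Levels of the 10 genes (columns) in 21 cell classes (rows, with cell numbers) as log2(CPM + 1) of UMIs summed over each class; a plus sign marks a gene called higher than in all other kept cells. Colours compare classes within a gene. The plus signs of Ptgs2 sit in the monocyte or dendritic-like class (2609.9 CPM) and the Cxcl5-led cluster (1905 CPM), and those of Ptgs1 in the synovial lining (124 CPM), granulocyte progenitor (55.4 CPM) and neutrophil-like (43.6 CPM) classes.

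Ptgs2 (ENSMUSG00000032487, mm10 chromosome 1, 150100031 to 150108227, plus strand) had 108461 UMIs, found in 27.5% of kept cells. Its level was highest in monocyte or dendritic-like cells, with 2529 CPM (set 1) and 2749 CPM (set 2), and 2609.9 CPM over both sets (95% interval 2540.1 to 2681), against 482 CPM in all other cells. The ratio was 5.41 (5.26 to 5.56). The Cxcl5-led cluster followed with 1867 CPM (set 1) and 1962 CPM (set 2), together 1905 CPM (1889 to 1921), against 273 CPM in all other cells, a ratio of 6.98 (6.90 to 7.07). Both classes stood above every other class in each set. Their order depended on the clustering, since at a Leiden resolution of 2 the Cxcl5-led cluster was highest in Ptgs2 (2554 CPM, against 1924 CPM in monocyte or dendritic-like cells), and at 0.5 the highest class was fibroblast-like. The Cxcl5-led cluster, 8.74% of kept cells, held 53.3% of all Ptgs2 UMIs. A class of this name was present in 11 of the 19 alternative settings. Its calls of higher, for Ptgs2, Ptges, Ptgis and Ptgir, held in each of those. In the others no class bore the name, so the calls could not be followed.

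Macrophage-like cells were next with 904 CPM of Ptgs2 (979.7 and 831 CPM in sets 1 and 2), which at 1.88 times the level of other cells missed the ratio needed for a call. Osteoblast-like cells had 497 CPM, fibroblast-like cells 432, tenocyte or ligament fibroblast-like cells 291 and the Dnah12-led cluster 279, none of them called. These 5 classes lay in the middle of the order, and the other 14 were called lower. Among those, chondrocyte-like cells had 159.5 CPM, neutrophil-like cells 93.1, mast cell-like cells 78.4, T or NK cell-like cells 78.3, endothelial-like cells 75.3 and granulocyte progenitor-like cells 75.1. Schwann-like cells had 56.7 CPM, muscle progenitor-like cells 32.3, synovial lining fibroblast-like cells 23.9, erythroid-like cells 22.9, skeletal myofibre-like cells 18.4, the Ppbp-led cluster 17.1, B cell-like cells 15.4 and pericyte or smooth muscle-like cells 8.73. Of the 20 pairs of neighbours in this order, 12 had overlapping intervals. The T or NK cell-like value came from set 2 alone, with 0 CPM (set 1) and 243 CPM (set 2).

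Shares of cells with a UMI were compared after every cell had been thinned to 2000 UMIs. Ptgs2 was then found in 66.4% of monocyte or dendritic-like cells (exact interval 56.6 to 75.2), 55.3% of the Cxcl5-led cluster (52.6 to 58.0), 31.0% of macrophage-like cells and 24.2% of fibroblast-like cells. Erythroid-like cells, which are not expected to make it, had a UMI in 1.64% (1.09 to 2.38). Their median depth was 5088 UMIs before thinning, against 13113 in monocyte or dendritic-like cells and 17347.5 in the Cxcl5-led cluster.

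Ptgs1 (ENSMUSG00000047250, chromosome 2, 36230426 to 36252272, plus strand) had 4107 UMIs in 12.7% of cells and was distributed differently. Synovial lining fibroblast-like cells, which carry the lubricin gene Prg4 and Htra4, had 101 CPM (set 1) and 136 CPM (set 2), together 124 CPM (113 to 137), against 17.4 CPM in all other cells. The ratio was 7.16 (6.45 to 7.92). After thinning, 20.9% of these cells had a Ptgs1 UMI (14.8 to 28.1), against 0.243% of erythroid-like cells. Granulocyte progenitor-like cells were called higher with 67.8 CPM (set 1) and 39.6 CPM (set 2), together 55.4 CPM against 18.4 CPM in other cells (ratio 3.02, 2.62 to 3.46). Neutrophil-like cells were called higher with 40.3 CPM (set 1) and 48.9 CPM (set 2), together 43.6 CPM against 16.8 CPM (ratio 2.59, 2.40 to 2.80). The call in neutrophil-like cells was lost in 6 of 19 alternative settings, where the ratio went as low as 1.68.

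Between 14.2 and 25.0 CPM of Ptgs1 were found in endothelial-like cells (25.0), the Ppbp-led cluster (22.3), fibroblast-like (21.6) and chondrocyte-like cells (20.5), the Cxcl5-led cluster (20.2) and the Dnah12-led cluster (14.2), with no call. The other 12 classes were called lower. They ranged over 9.60 CPM in macrophage-like, 6.73 in osteoblast-like, 1.32 in tenocyte or ligament fibroblast-like and 0.985 CPM in monocyte or dendritic-like cells. Pericyte or smooth muscle-like cells had no Ptgs1 UMI, at least 8.04-fold lower than other cells when 3 UMIs over the class (2.38 CPM) are put in place of 0. The class with the highest Ptgs2 level thus had 2 Ptgs1 UMIs beside 5301 of Ptgs2.

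The share of Ptgs2 in the summed UMIs of both genes puts these levels on 1 axis, and is compared here between classes only. It was 16.1% in synovial lining fibroblast-like cells (13.0 to 19.7), with 3.36% in set 1 and 20.2% in set 2. This was the lowest of the 16 classes with at least 100 such UMIs. The Ppbp-led cluster had 43.4%, granulocyte progenitor-like cells 57.5%, neutrophil-like cells 68.1% and endothelial-like cells 75.1%, and in each of these 4 the sets stood 10 or more percentage points apart. Chondrocyte-like cells had 88.6%, fibroblast-like cells 95.2%, macrophage-like cells 98.9%, the Cxcl5-led cluster 99.0%, tenocyte or ligament fibroblast-like cells 99.5% and monocyte or dendritic-like cells 100.0% after rounding. In the synovial lining class alone among these 16, Ptgs1 gave the larger sum in each set. With 15 components in the clustering, the Ptgs2 ratio of this class to other cells was 1.16. The class highest in Ptgs1 was then granulocyte progenitor-like. The share was not computed in that setting.

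**Figure D2:**
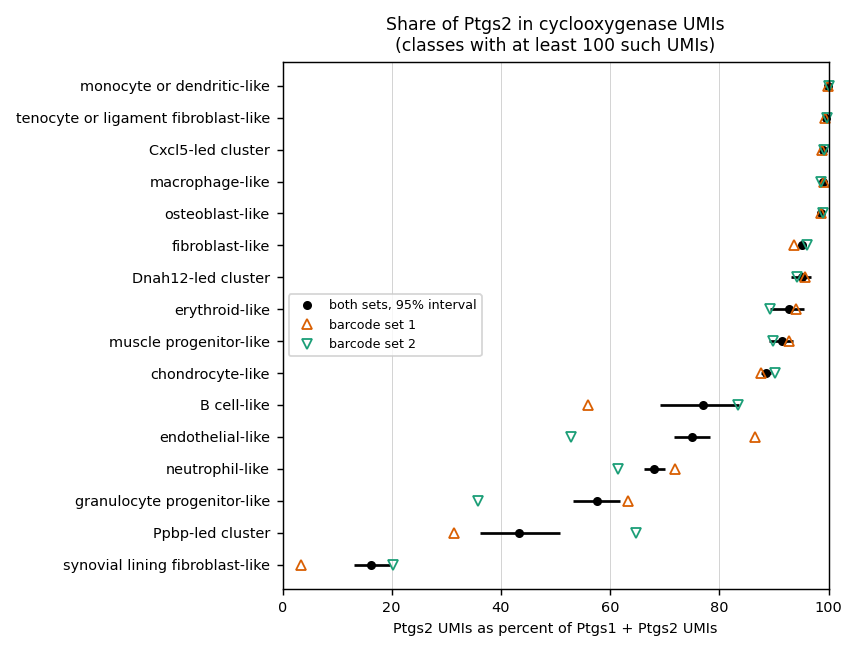
Ptgs2 UMIs as a percent of Ptgs1 plus Ptgs2 UMIs (x axis) in the 16 classes with at least 100 such UMIs (y axis); black points with bars are both sets with the exact 95% interval, triangles are the barcode sets. Synovial lining fibroblast-like cells sit at 16.1% and monocyte or dendritic-like cells at 100.0%.

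Ptges (ENSMUSG00000050737, chromosome 2, 30889471 to 30929863, minus strand) encodes the inducible microsomal prostaglandin E synthase. It had 9675 UMIs in 19.0% of cells, and its 3 highest classes were the 3 highest of Ptgs2. Monocyte or dendritic-like cells had 274 CPM (set 1) and 76.3 CPM (set 2), together 201 CPM (182 to 222), against 43.3 CPM in other cells (ratio 4.65, 4.20 to 5.13). Macrophage-like cells had 228 CPM (set 1) and 112 CPM (set 2), together 169 CPM (162 to 177), against 38.3 CPM (ratio 4.42, 4.20 to 4.66). The Cxcl5-led cluster had 121 CPM (set 1) and 87.7 CPM (set 2), together 108 CPM (104 to 112), against 34.5 CPM (ratio 3.12, 2.99 to 3.26), and held 33.8% of all Ptges UMIs. The order of these 3 classes was not the same in the sets: macrophage-like cells were highest in set 2, and also at Leiden resolutions of 0.5 and 2.

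In the monocyte or dendritic-like class the 9 neutrophil markers, none of them at 0, summed 4033 CPM (set 1) and 203 CPM (set 2), and their part in the difference between sets in Ptges was not tested. The Dnah12-led cluster had 52.2 CPM of Ptges, fibroblast-like cells 43.5, osteoblast-like cells 31.8, chondrocyte-like cells 31.2, neutrophil-like cells 25.8 and endothelial-like cells 23.9, with no call. The other 12 classes were called lower, with 15.9 CPM in pericyte or smooth muscle-like, 15.1 in tenocyte or ligament fibroblast-like, 5.08 in synovial lining fibroblast-like and 2.27 in erythroid-like cells and 2.09 CPM in the Ppbp-led cluster. At 2000 UMIs per cell, Ptges was found in 19.6% of monocyte or dendritic-like cells, 13.3% of the Cxcl5-led cluster and 11.3% of macrophage-like cells, against 0.304% of erythroid-like cells.

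Ptgis (ENSMUSG00000017969, chromosome 2, 167191805 to 167240604, minus strand) encodes prostacyclin synthase and was found in 35.6% of cells, with 33565 UMIs. Tenocyte or ligament fibroblast-like cells had 452 CPM (set 1) and 532 CPM (set 2), together 498 CPM (484 to 513), against 140.4 CPM in other cells (ratio 3.55, 3.44 to 3.66). The Cxcl5-led cluster had 378 CPM (set 1) and 396 CPM (set 2), together 385 CPM (378 to 392), against 118 CPM (ratio 3.27, 3.19 to 3.34). These were the only classes called higher, and the Cxcl5-led cluster was the higher of them at a resolution of 2 and with at least 1000 genes and 2000 UMIs per cell. Osteoblast-like cells (233 CPM), the Dnah12-led cluster (232), fibroblast-like (209), pericyte or smooth muscle-like (199), muscle progenitor-like (95.6) and chondrocyte-like cells (83.1) had no call, and the other 13 classes were called lower.

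The monocyte or dendritic-like and macrophage-like classes, the highest for Ptges, were near the low end for Ptgis. Macrophage-like cells had 20.4 CPM of Ptgis, erythroid-like cells 11.1, monocyte or dendritic-like cells 9.85, neutrophil-like cells 7.29 and the Ppbp-led cluster 2.09. The monocyte or dendritic-like value was 1.02 CPM without the 1 cell with most Ptgis UMIs. The synovial lining class, at 17.6 CPM against 158 CPM in other cells, was also called lower. At 2000 UMIs per cell, 54.5% of tenocyte or ligament fibroblast-like cells had a Ptgis UMI (50.2 to 58.8), against 0.912% of erythroid-like cells. Ptgis overlaps 2 genes of the opposite strand in the matrix, 1110018N20Rik and Gm14291, and the sources used here do not say whether counting used strand.

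**Figure D3:**
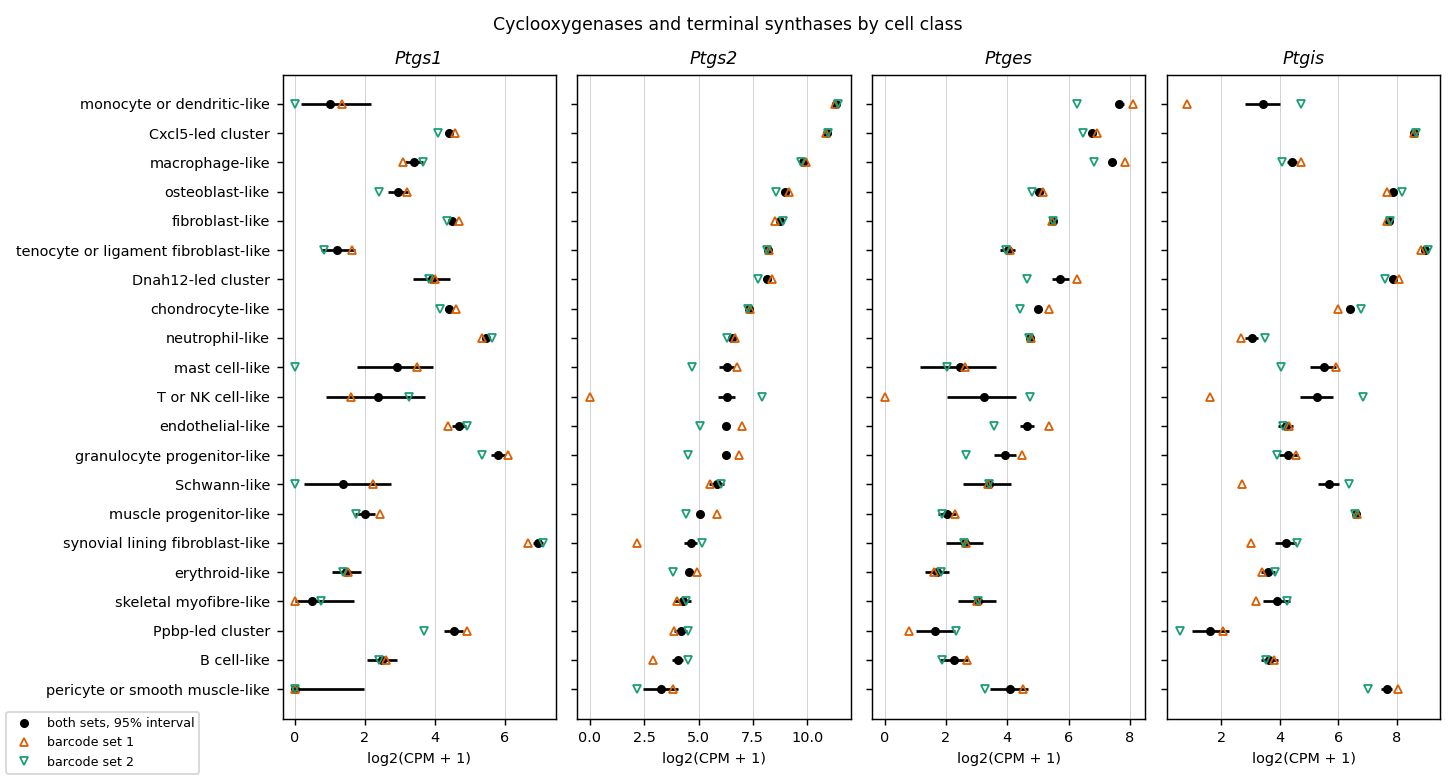
Levels of Ptgs1, Ptgs2, Ptges and Ptgis as log2(CPM + 1) (x axes) in 21 classes ordered by Ptgs2 (y axis); black points with bars are both sets with the exact Poisson 95% interval, triangles are the barcode sets. Ptges is high at the top of the Ptgs2 order, Ptgis is highest in tenocyte or ligament fibroblast-like cells (498 CPM), and Ptgs1 is highest in synovial lining fibroblast-like cells (124 CPM).

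Ptgds (ENSMUSG00000015090, chromosome 2, 25466709 to 25470046, minus strand), the lipocalin-type prostaglandin D synthase, had 392 UMIs in 1.47% of cells. Muscle progenitor-like cells had 16.8 CPM (set 1) and 13.1 CPM (set 2), together 14.3 CPM (12.6 to 16.1), against 0.668 CPM in other cells (ratio 21.4, 17.3 to 26.6). They held 66.3% of its UMIs. Schwann-like cells had 71.7 CPM, but all 91 UMIs came from 1 cell of set 1, and no call was made. The other classes were at or below 1.04 CPM, and 9 of them had no Ptgds UMI.

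Hpgd (ENSMUSG00000031613, chromosome 8, 56294585 to 56321043, plus strand) encodes the dehydrogenase that inactivates prostaglandin E2 and related prostanoids. It had 4153 UMIs in 6.77% of cells. It was called higher in 5 classes and lower in all other 16. The Dnah12-led cluster had 41.5 CPM (set 1) and 184 CPM (set 2), together 108 CPM (ratio 5.84, 5.06 to 6.70), and 49.7 CPM without its top cell. In that cluster the 9 neutrophil markers summed 1675 CPM (set 1) and 4674 CPM (set 2), none at 0, and 5 of 7 fibroblast markers were called higher; their part in the Hpgd level was not tested. Macrophage-like cells had 40.5 CPM (set 1) and 99.8 CPM (set 2), together 70.4 CPM (65.5 to 75.7), against 16.6 CPM in other cells (ratio 4.25, 3.93 to 4.61).

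Osteoblast-like cells had 65.6 CPM of Hpgd (set 1) and 41.7 CPM (set 2), together 56.4 CPM (ratio 3.31). The Ppbp-led cluster had 48.6 CPM (set 1) and 42.2 CPM (set 2), together 45.9 CPM (ratio 2.47), or 29.5 CPM without its top cell. Its call was lost in 3 of 17 alternative settings, among them without set 1 (ratio 1.96) and without the top cell (ratio 1.58). The osteoblast-like call was lost without set 1 (ratio 1.99). Fibroblast-like cells had 39.0 CPM (set 1) and 40.7 CPM (set 2), together 40.0 CPM (ratio 2.82, 2.65 to 3.0). Fibroblast-like cells held 40.7% of all Hpgd UMIs. Their call was lost in 5 of 19 alternative settings, with a ratio as low as 1.34. Hpgd was low in the 2 classes highest in Ptgs2, with 1.97 CPM in monocyte or dendritic-like cells and 3.03 CPM in the Cxcl5-led cluster (ratio 0.138, 0.111 to 0.170). The synovial lining class had no Hpgd UMI, against 19.5 CPM in other cells, which with 3 UMIs over the class (0.896 CPM) in place of 0 was at least 21.8-fold lower.

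Ptger3 (ENSMUSG00000040016, chromosome 3, 157566892 to 157645888, plus strand) encodes EP3, the prostaglandin E2 receptor that mainly lowers cyclic AMP. It had 1240 UMIs in 3.0% of cells. Its level in synovial lining fibroblast-like cells was 234 CPM (set 1) and 133 CPM (set 2), together 168 CPM (154 to 182), against 3.19 CPM in other cells, a ratio of 52.5 (46.8 to 58.7). These 158 cells, 1.04% of the kept cells, held 45.2% of all Ptger3 UMIs. At 2000 UMIs per cell, 24.7% of them had a Ptger3 UMI (18.2 to 32.2), against 0.365% of erythroid-like cells. The ratio lay between 14.3 and 73.4 over 19 alternative settings. The Ppbp-led cluster, with 18.2 CPM (ratio 3.33), and the Dnah12-led cluster, with 21.7 CPM (set 1) and 7.68 CPM (set 2), together 15.2 CPM (ratio 2.69), were also called higher. The Dnah12-led call was lost in 4 of 16 alternative settings, among them without set 1 (ratio 1.31), with components centred per set (2.59) and without the top cell (1.65). No other class exceeded 7.93 CPM.

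Ptger2 and Ptger4 encode EP2 and EP4, the prostaglandin E2 receptors that raise cyclic AMP. Ptger2 (ENSMUSG00000037759, chromosome 14, 44988195 to 45003820, plus strand) had 502 UMIs in 2.40% of cells. T or NK cell-like cells had 28.9 CPM (set 1) and 13.0 CPM (set 2), together 23.8 CPM from 17 UMIs, against 2.25 CPM in other cells (ratio 10.5, 6.09 to 17.1). Monocyte or dendritic-like cells had 14.8 CPM (set 1) and 29.4 CPM (set 2), together 20.2 CPM against 2.16 CPM (ratio 9.36, 6.63 to 12.9). Neutrophil-like cells had 8.12 CPM (set 1) and 9.03 CPM (set 2), together 8.47 CPM against 1.77 CPM (ratio 4.78, 3.92 to 5.80), and held 30.1% of its UMIs. The Ppbp-led cluster had 3.22 CPM (set 1) and 9.55 CPM (set 2), together 5.85 CPM from 28 UMIs (ratio 2.60), and its call was lost in 4 of 17 alternative settings, among them without set 2 (ratio 1.16). All 4 classes called higher for Ptger2 were led by blood cell genes, and fibroblast-like (1.06 CPM), chondrocyte-like (0.224 CPM) and synovial lining fibroblast-like cells (no UMI) were called lower.

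Ptger4 (ENSMUSG00000039942, chromosome 15, 5206661 to 5244187, minus strand) had 2748 UMIs in 10.7% of cells, and all 20 pairs of neighbours in the order of its levels had overlapping intervals. Monocyte or dendritic-like cells had 36.6 CPM (set 1) and 25.4 CPM (set 2), together 32.5 CPM against 12.5 CPM in other cells (ratio 2.59, 2.00 to 3.31). The Ppbp-led cluster had 23.9 CPM (set 1) and 30.6 CPM (set 2), together 26.7 CPM against 12.4 CPM (ratio 2.15, 1.79 to 2.57). This call was lost in 3 of 17 alternative settings (ratio as low as 1.83), and that of monocyte or dendritic-like cells in 2 of 18, among them without set 1 (ratio 1.91). B cell-like cells (20.9 CPM), the Cxcl5-led cluster (17.6), fibroblast-like (17.2), synovial lining fibroblast-like (16.1), macrophage-like (15.9) and neutrophil-like cells (14.8) had no call. Erythroid-like cells, at 4.54 CPM, and skeletal myofibre-like cells, at 0.400 CPM, were among 7 classes called lower. Ptger2 overlaps Gm17173 and Ptger4 overlaps Ttc33, each on the opposite strand.

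Ptgir (ENSMUSG00000043017, chromosome 7, 16906490 to 16910905, plus strand) encodes IP, the prostacyclin receptor, and had 1973 UMIs in 7.64% of cells. The Cxcl5-led cluster had 29.5 CPM (set 1) and 29.2 CPM (set 2), together 29.3 CPM (27.5 to 31.3), against 5.83 CPM in other cells (ratio 5.03, 4.60 to 5.50), and held 45.2% of its UMIs. T or NK cell-like cells had 66.1 CPM (set 1) and 26.0 CPM (set 2), together 53.2 CPM from 38 UMIs (ratio 5.91, 4.17 to 8.14). Pericyte or smooth muscle-like cells had 39.5 and 17.3 CPM in the sets, together 29.4 CPM from 37 UMIs (ratio 3.25), and synovial lining fibroblast-like cells had 22.9 and 27.1 CPM, together 25.7 CPM (ratio 2.89). The intervals of the Cxcl5-led, pericyte or smooth muscle-like and synovial lining levels overlapped. Ptgir was called lower in tenocyte or ligament fibroblast-like cells, at 2.09 CPM, where Ptgis was highest.

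**Figure D4:**
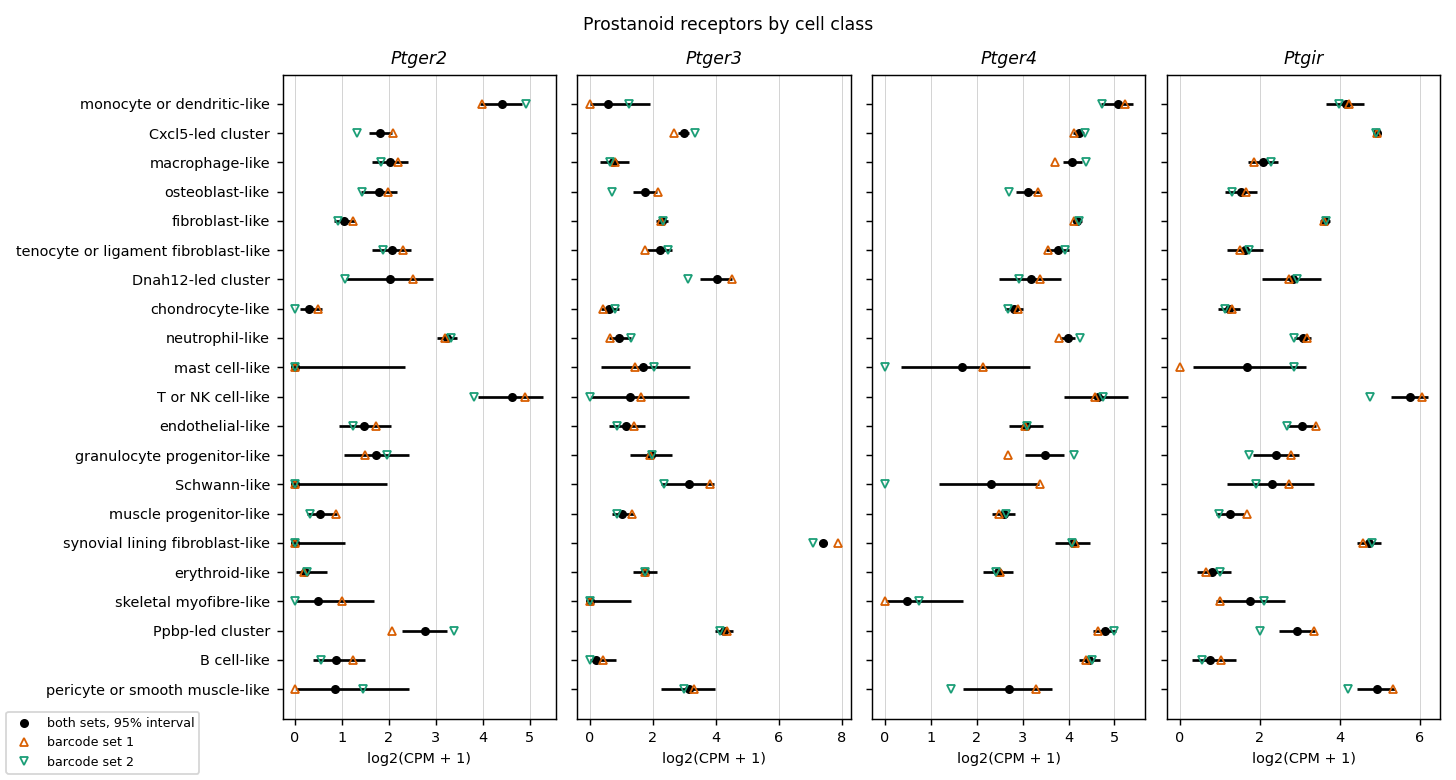
Levels of Ptger2, Ptger3, Ptger4 and Ptgir as log2(CPM + 1) (x axes) in 21 classes ordered as by Ptgs2 (y axis); black points with bars are both sets with the exact Poisson 95% interval, triangles are the barcode sets. Ptger3 stands apart in synovial lining fibroblast-like cells (168 CPM against 3.19 CPM in other cells), while the neighbouring levels of Ptger4 overlap throughout.

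Seen by class, the Cxcl5-led cluster was called higher for 4 of the 10 genes, Ptgs2, Ptges, Ptgis and Ptgir, where 3.92% of the 16899 genes tested were. It was called lower for 2, Ptgds and Hpgd, where 35.9% of genes were. Monocyte or dendritic-like cells were called higher for 4, Ptgs2, Ptges, Ptger2 and Ptger4 (8.32% of genes), and lower for 5 (33.4%). Synovial lining fibroblast-like cells were called higher for 3, Ptgs1, Ptger3 and Ptgir (7.79%), and lower for 6 (21.7%). The Ppbp-led cluster was called higher for 4, Hpgd, Ptger2, Ptger3 and Ptger4 (14.8%), and of these the Ptger3 call alone held in all 17 alternative settings. In that cluster the 5 erythroid markers summed 38792 CPM (set 1) and 12837 CPM (set 2), none at 0, and the 6 megakaryocyte or platelet markers 7282 and 1630 CPM; their part in these calls was not tested.

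Counts were 2 in macrophage-like (9.53% of genes), neutrophil-like (10.4%) and T or NK cell-like cells (11.5%) and the Dnah12-led cluster (12.8%). They were 1 in fibroblast-like (9.3%), osteoblast-like (6.99%), tenocyte or ligament fibroblast-like (6.17%), muscle progenitor-like (12.9%), pericyte or smooth muscle-like (9.81%) and granulocyte progenitor-like cells (10.8%). A count of 1 of 10 is near these background shares. No member was called higher in B cell-like (22.1% of genes), chondrocyte-like (8.08%), endothelial-like (10.5%), erythroid-like (8.85%), mast cell-like (6.75%), skeletal myofibre-like (7.73%) or Schwann-like cells (12.4%). All 10 were called lower in erythroid-like cells, where 70.9% of genes were. Calls of lower numbered 9 in B cell-like (30% of genes) and skeletal myofibre-like cells (52.2%), 8 in muscle progenitor-like cells (23.7%), and 7 in chondrocyte-like (31.4%) and mast cell-like cells (25.2%). They numbered 6 in granulocyte progenitor-like (33.1%) and Schwann-like cells (11.3%), and 5 in neutrophil-like (56.9%), macrophage-like (45.2%), T or NK cell-like (16.7%), tenocyte or ligament fibroblast-like (22.5%) and pericyte or smooth muscle-like cells (12.6%). They numbered 4 in endothelial-like (21%) and osteoblast-like cells (19.9%) and the Ppbp-led cluster (25.1%), 2 in fibroblast-like cells (22.1%) and 0 in the Dnah12-led cluster (12.4%).

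Several classes held clusters in which these genes differed widely. Each cluster was compared with the other clusters of its own class by the same rule. This gave 23 calls of higher among 220 pairs of a gene and a cluster, many with too few UMIs for a call. Genes with enough UMIs numbered from 0 of 10 in skeletal myofibre-like to 8 of 10 in fibroblast-like clusters. Over all genes tested, 1.49% to 36.6% were called higher, depending on the cluster. Single calls were followed only in the 7 alternative settings that kept these clusters. Other cell filters or clusterings therefore did not test them. The macrophage-like class parted into cluster 12 (532 cells, led by Ifnb1 and Ccl4) and cluster 24 (228 cells, led by C1qa and Mrc1, genes of resident macrophages). Against cluster 24, ratios in cluster 12 were among the largest for Cmpk2, Olfr56, Iigp1, Ifit3 and Ifi209, most of them interferon-induced, and in cluster 24 for Mmp9, Rhoh, Cbfa2t3 and Dusp6. Cluster 12 had 1227 CPM of Ptgs2 (set 1) and 1129.6 CPM (set 2), together 1179 CPM, against 46.1 CPM in cluster 24 (ratio 25.6, 21.4 to 30.9). Ptges went the same way, with 286 CPM (set 1) and 152 CPM (set 2), together 221 CPM, against 8.83 CPM (ratio 25.0, 16.6 to 39.5).

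Hpgd went the other way. Cluster 24 had 136 CPM of Hpgd (set 1) and 330.2 CPM (set 2), together 245 CPM, against 14.5 CPM in cluster 12 (ratio 16.9, 13.9 to 20.7). It was 174 CPM without 1 cell with 190 UMIs. Ptgs1 was also higher in cluster 24, at 22.3 CPM against 5.54 CPM (ratio 4.02), as was Ptger4, at 29.6 CPM against 11.6 CPM (ratio 2.56). Cluster 12 was thus called higher for Ptgs2, Ptges and Ptgis (9.83% of 7255 genes) and cluster 24 for Ptgs1, Hpgd and Ptger4 (21.2%). Of 7 alternative settings, the Ptgs1 call was lost in 3 (without set 1, without set 2 and without the top cell). The Ptger4 call was lost in 2 (ratio 1.79 without set 2) and the Ptgis call in 1 (without set 1). The other 3 calls were lost in none. In all 7 settings the ratio stayed at 2.195 or above for Ptgs1 and 3.95 or above for Ptgis. Beside these values, a list of 19 inflammatory cytokine and NF-kappaB response genes summed 55919 CPM in cluster 12 and 10569 CPM in cluster 24. A list of 16 dissociation and immediate early genes summed 7844 CPM in cluster 12 and 20930 CPM in cluster 24. The part of the 6 h digestion in these differences was not tested.

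Among fibroblast-like cells, cluster 14 (500 cells, led by Brinp3, Krtdap and Pi16) had 1055 CPM of Ptgs2 (set 1) and 1425 CPM (set 2), together 1264 CPM, against 201 CPM in the other fibroblast-like clusters (ratio 6.29, 6.10 to 6.48). By cluster the levels were 1264 CPM in cluster 14, 599 in cluster 3 (led by Ccl11 and Saa3) and 53.8 CPM in cluster 0 (led by Abca8a and Ebf2). Cluster 14 also had 64.8 and 51.3 CPM of Ptgs1 in the sets, together 57.1 CPM against 11.8 CPM (ratio 4.86, 4.25 to 5.56), and 403 CPM of Ptgis against 155 CPM (ratio 2.59). Both cyclooxygenases were thus called higher in the same cluster, where 5.81% of 11855 genes were called higher. Ptges showed no call among the 3 clusters, with 61.8 CPM in cluster 3, 57.7 in cluster 14 and 31.4 in cluster 0.

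Cluster 3 was called higher only for Ptgir (2.24% of genes), at 23.1 CPM against 8.22 CPM (ratio 2.81, 2.33 to 3.38). Cluster 0 was called higher only for Hpgd (27% of genes), at 50.4 CPM (set 1) and 55.3 CPM (set 2), together 53.3 CPM against 22.3 CPM (ratio 2.39). Within the class the largest ratios were those of Gm3776, Brinp3, 5033421B08Rik, Ifit1 and Gsta1 in cluster 14, of A730049H05Rik, Ccl19, Saa3, Csf3 and Il11 in cluster 3, and of Mgat4e, Asb16, 4930515B02Rik, Gm32913 and Gm48594 in cluster 0. The cytokine list summed 38644 CPM in cluster 14, 23964 in cluster 3 and 3477 CPM in cluster 0, and the dissociation list 4321, 5549 and 15619 CPM.

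Among the neutrophil-like clusters, cluster 2 was highest in Ptgs2 and lowest in Ptgs1. Cluster 2 (led by Asprv1 and Cxcr2, and against its class by Cxcl3, Clec4n, Il1a, Adgre1 and Il1b) had 275 CPM of Ptgs2 (set 1) and 300.2 CPM (set 2), together 282 CPM, against 23.9 CPM in the other neutrophil-like clusters (ratio 11.8, 10.4 to 13.4). Clusters 13 (led by Slc2a3 and Mmp8), 20 (Chil3 and Camp) and 17 (Ifitm6 and Ltf) had 52.8, 13.1 and 10.2 CPM. Ptgs1 was highest in cluster 20, with 69.2 CPM (set 1) and 71.5 CPM (set 2), together 70.1 CPM against 30.7 CPM (ratio 2.28, 1.98 to 2.63), then 48.6 CPM in cluster 13, 31.0 in cluster 17 and 16.3 in cluster 2. The Ptgs2 share of cyclooxygenase UMIs was 94.5% in cluster 2, 52.1% in cluster 13, 24.8% in cluster 17 and 15.7% in cluster 20.

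Camp and Ltf mark granule-forming, immature neutrophils, whereas Cxcr2 marks mature ones. Cluster 2 was called higher for Ptgs2, Ptgis and Ptger2 (16.3% of 7862 genes), with Ptger2 at 14.2 CPM against 6.36 CPM (ratio 2.24). Cluster 17, in which Krt81, Ldhc, Astn2, Tmem45a2 and Ifitm6 had the largest ratios, was called higher for Ptgir (1.49%), at 14.6 CPM against 5.69 CPM (ratio 2.57). Cluster 20, with Gm19583, Hist1h3g, Gm572, Cdca5 and Rhebl1, was called higher for Ptgs1 (25.2%). The Ptger2 and Ptgir calls were each lost in 4 of 7 alternative settings, the Ptgis call in 3 (leaving out set 1, leaving out set 2 and by per-cell means, ratio as low as 1.69) and the Ptgs1 call in 2 (ratio 1.88 without set 1). The Ptgs2 call of cluster 2 was lost in none. In clusters 2, 13, 17 and 20 the cytokine list summed 10411, 1084, 1076 and 1035 CPM, and the dissociation list 9771, 14550, 4050 and 5199 CPM. Adgre1, one of the macrophage markers, had 421 CPM in cluster 2 against 6.36 CPM in the other neutrophil-like clusters. The part of maturity, cytokine response or admixed cells in these levels was not tested.

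Chondrocyte-like cluster 8 (led by Matn1, Snorc and Col10a1) had 210.3 CPM of Ptgs2 (set 1) and 265 CPM (set 2), together 234 CPM against 79.0 CPM in cluster 6 (led by Msmp and Cytl1), a ratio of 2.97 (2.76 to 3.19). In set 1 alone the ratio was 1.84 and in set 2 it was 7.43. Hpgd was 16.4 CPM against 1.71 CPM (ratio 9.62, 6.20 to 15.6) in the same direction, and Ptger4 was 9.54 CPM in cluster 6 against 2.73 CPM in cluster 8 (ratio 3.49, 2.41 to 5.16). Without set 2 the calls of Ptgs2, Hpgd and Ptger4 were lost, and without set 1 that of Ptger4. In all 7 alternative settings the ratio stayed at 6.74 or above for Hpgd and 2.75 or above for Ptger4. The Hpgd and Ptger4 losses thus came from the UMI minimum or the interval, not from the ratio. Cluster 8 was called higher for 2 members (5.13% of 10422 genes) and cluster 6 for 1 (6.16%). Against each other, cluster 8 was led by Col10a1, Il17b, AW112010, Panx3 and Bglap2, and cluster 6 by Mup5, Prtn3, Casr, Msmp and Cilp.

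Muscle progenitor-like cluster 15 (led by Myog, a gene of differentiating myoblasts, and against its class by Mylk4, Tnnt2, Mymx, Tnni1 and Klhl41) had 26.5 CPM of Ptgds (set 1) and 24.3 CPM (set 2), together 25.1 CPM, against 9.25 CPM in the other 2 clusters (ratio 2.71, 2.10 to 3.49; 4.5% of 10269 genes were called higher). This call was lost without set 2 (ratio 2.20 or above in all 7 alternative settings). Erythroid-like cluster 16 was called higher for both Ptgs2, at 59.9 CPM against 7.80 CPM, and Ptgis, at 25.6 CPM against 5.20 CPM (9.44% of 5656 genes). Within its class that cluster was led by Slit3, Il6, Fgf7, Pakap and Icam1, none of them genes of red cell precursors, and its Ptgs2 level was 31.0 CPM without its top cell. Both calls were lost without set 1, and that of Ptgis also without set 2. The ratio stayed at 2.966 or above for Ptgs2 and 3.84 or above for Ptgis in all 7 alternative settings. B cell-like cluster 19, led within its class by Vpreb2, Ighv1-77, Nmnat2, Egfl7 and Gm28403, had 24.0 CPM of Ptgs2 against 4.98 CPM (12.4% of 7738 genes were called higher), and 11.3 CPM without its top cell. The call was lost leaving out set 1, set 2 or the top cell.

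**Figure D5:**
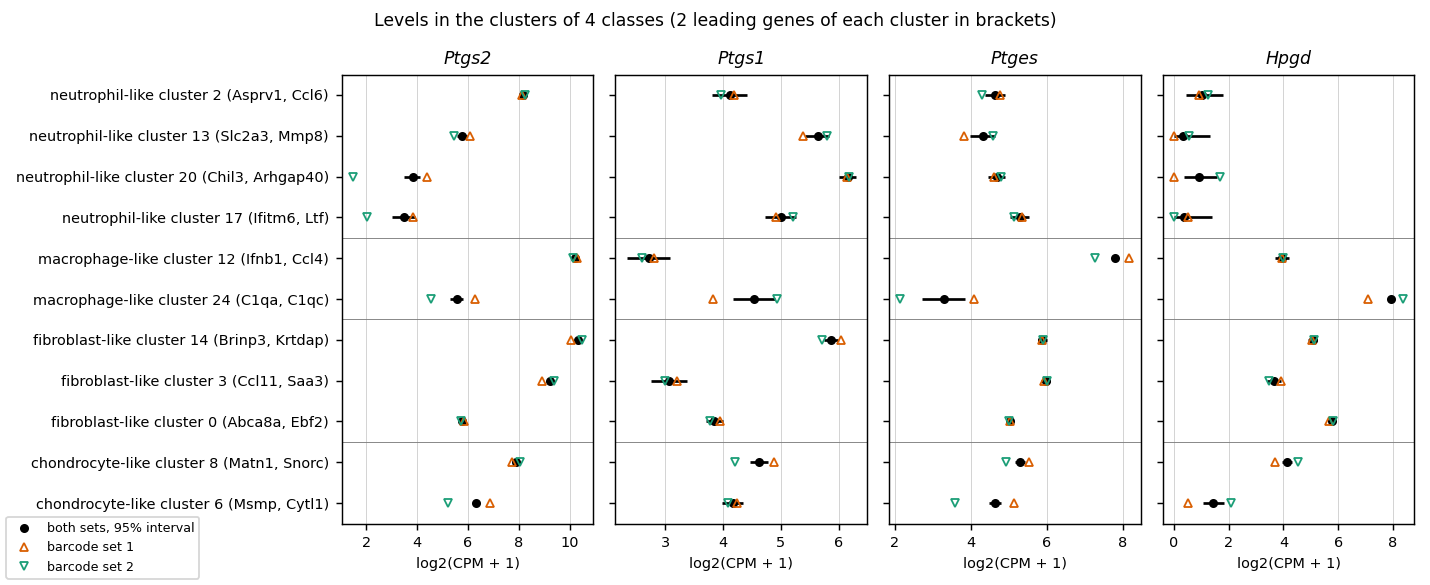
Levels of Ptgs2, Ptgs1, Ptges and Hpgd as log2(CPM + 1) (x axes) in the clusters of 4 classes (y axis, with 2 leading genes each); black points with bars are both sets with the exact Poisson 95% interval, triangles are the barcode sets. Macrophage-like cluster 12 is high in Ptgs2 (1179 CPM) and Ptges (221 CPM) and cluster 24 in Hpgd (245 CPM); among neutrophil-like clusters Ptgs2 is highest in cluster 2 (282 CPM) and Ptgs1 in cluster 20 (70.1 CPM).

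Across the 35 clusters the levels of Ptgs2 and Ptges varied together, with Pearson's r of 0.81 on log2(CPM + 1). The r was 0.60 for Ptges and Ptgir, 0.58 for Ptgs2 and Ptgis, 0.54 for Ptger2 and Ptger4, 0.28 for Ptgs1 and Ptger3 and 0.22 for Ptgs1 and Ptgs2. These describe 35 points that share their libraries and depth. Within cells thinned to 2000 UMIs, Ptges was found in 15.9% of Ptgs2-positive cells of the Cxcl5-led cluster (13.3 to 18.7), against 10.0% of its Ptgs2-negative cells (7.70 to 12.7). In macrophage-like cluster 12 these shares were 17.2% and 14.1%. Within fibroblast-like clusters they were 12.6% and 6.04% (cluster 0), 13.0% and 9.57% (cluster 3), and 11.8% and 6.15% (cluster 14). In cluster 12 and in each fibroblast-like cluster the intervals of these shares overlapped. Neutrophil-like cells went the other way, at 3.23% and 5.76%, also with overlapping intervals. Osteoblast-like cells had 5.84% and 4.95%. Ptgis was found in 44.4% of Ptgs2-positive and 46.6% of Ptgs2-negative cells of the Cxcl5-led cluster. Over all fibroblast-like cells its shares were 43.6% and 22.1%, and within their clusters they lay closer together, at 26.3% and 16.0% (cluster 0), 35.2% and 29.5% (cluster 3), and 55.7% and 45.6% (cluster 14). In synovial lining fibroblast-like cells Ptger3 was found in 24.2% of cells with a Ptgs1 UMI and 24.8% of cells without.

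The genes whose levels across the 35 clusters were most like those of a member were taken from 11326 genes with at least 1000 UMIs. For Ptgs2 they were Ptgs2os (r = 0.87), Gm16685 (0.82) and Srxn1 (0.81). Ptgs2os lies on the opposite strand with a gap of 67 bases to Ptgs2. For Ptges they were Pla2g4a (0.83), Casp4 (0.82) and Ptgs2 (0.81), for Ptgis Dclk1 (0.92), Thbs2 (0.91) and Tmeff1 (0.91), and for Ptgs1 Tnfrsf23 (0.74), Anxa3 (0.73) and Ppm1m (0.70). For Hpgd they included Ang (0.75) and Rab7b (0.71), and they were for Ptger3 Ntrk3 (0.69), Ccdc3 (0.65) and Sv2c (0.61), for Ptger4 B2m (0.78), Tap2 (0.76) and Lrp10 (0.75), and for Ptgir Gm16201 (0.78), Myd88 (0.78) and Irak3 (0.77).

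Other genes of the pathway were read from lists. Over all genes tested, 3.92% were called higher and 35.9% lower in the Cxcl5-led cluster, and 8.32% and 33.4% in monocyte or dendritic-like cells. These shares were 9.53% and 45.2% in macrophage-like cells and 7.79% and 21.7% in the synovial lining class. The lists are short, and their counts were not tested against these shares. Of 8 arachidonate release genes tested, 2 were called higher and 2 lower in the Cxcl5-led cluster, and 1 higher and none lower in monocyte or dendritic-like cells. Pla2g4a, the cytosolic phospholipase that supplies arachidonic acid, was called higher in the 3 classes in which Ptges was. It had 302 CPM (set 1) and 205 CPM (set 2) in monocyte or dendritic-like cells, together 266 CPM (ratio 3.68), against 165 CPM in macrophage-like cells and 145 CPM in the Cxcl5-led cluster. Plaa and Pla2g6 were called higher in no class, and Pla2g12a was highest in the Ppbp-led cluster (57.0 CPM). Pla2g4e was highest in skeletal myofibre-like cells (13.2 CPM), Pla2g5 and Pla2g10 in the Dnah12-led cluster (8.12 and 5.58 CPM), and Pla2g2e in synovial lining fibroblast-like cells (6.27 CPM).

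Of 7 other prostanoid synthases tested, 4 were called higher and none lower in macrophage-like cells, 2 higher and 2 lower in monocyte or dendritic-like cells, none higher and 2 lower in the Cxcl5-led cluster, and 0 higher and 1 lower in the synovial lining class. Hpgds, the haematopoietic prostaglandin D synthase, was highest in mast cell-like cells (219 CPM), followed by macrophage-like cells (162 CPM). Tbxas1, thromboxane synthase, was highest in macrophage-like cells (56.3 CPM) and next in the Ppbp-led cluster (53.0 CPM). Prxl2b (382 CPM) and Ptges2 (22.0 CPM) were highest in skeletal myofibre-like cells, Akr1b3 in muscle progenitor-like cells (217 CPM) and Cbr1 in mast cell-like cells (38.7 CPM). Ptges3 was called higher in no class.

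Of 7 transport and inactivation genes, 3 were called higher and 1 lower in both the Cxcl5-led cluster and monocyte or dendritic-like cells. The prostaglandin transporter genes Slco3a1 (241 CPM) and Slco2a1 (35.9 CPM) and the reductase Cbr3 (49.4 CPM) were highest in the Cxcl5-led cluster. Abcc4 (81.7 CPM), which exports prostanoids, and Ptgr1 (122 CPM), a prostaglandin reductase, were highest in monocyte or dendritic-like cells, and Ptgr2 in skeletal myofibre-like cells (49.2 CPM). Zadh2 was called higher in no class. In the list of other prostanoid receptors, 4 genes were tested. None was called higher in the Cxcl5-led cluster, macrophage-like or monocyte or dendritic-like cells, and 1 was in synovial lining fibroblast-like cells. That one was Ptger1, encoding the EP1 receptor, which was highest in chondrocyte-like cells (25.0 CPM in set 1, 14.5 CPM in set 2, together 20.3 CPM, ratio 21.5) and had 12.8 CPM in synovial lining fibroblast-like cells. Ptgfr, the prostaglandin F receptor, was highest in osteoblast-like cells (17.8 CPM) and Tbxa2r, the thromboxane receptor, in the Ppbp-led cluster (16.9 CPM). Ptgfrn, named as a regulator of the prostaglandin F receptor and not itself a prostanoid receptor, was highest in tenocyte or ligament fibroblast-like cells (128 CPM).

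The cytokine and dissociation lists went different ways in the classes highest in Ptgs2. In the Cxcl5-led cluster 12 of 19 cytokine and NF-kappaB response genes were called higher and 4 lower (median log2 ratio 2.00, against -0.52 over all genes tested), and 1 of 16 dissociation genes higher and 8 lower. In monocyte or dendritic-like cells the counts were 9 and 4 of 19, and 2 and 9 of 16, in macrophage-like cells 8 and 6 of 19, and 4 and 4 of 16, and in synovial lining fibroblast-like cells 1 and 13 of 19, and 0 and 5 of 16. The shares of all genes called in these classes are those given above with the pathway lists. Both lists were chosen with earlier results of these data known. Cxcl5, Saa3, Csf3, Csf2, Ptx3, Cxcl1 and Ccl2 of the cytokine list are among the leading genes of the Cxcl5-led cluster. The cytokine count in that cluster is therefore not an independent result. The summed cytokine list was 44405 CPM in the Cxcl5-led cluster, 29713 CPM in monocyte or dendritic-like cells and 7554 CPM in synovial lining fibroblast-like cells. The most abundant of these genes were Cxcl2 in macrophage-like cells (25038 CPM), Ccl2 (14759.5 CPM), Cxcl1 (14238 CPM) and Ptx3 (3313 CPM) in the Cxcl5-led cluster, and Il1b in monocyte or dendritic-like cells (8793 CPM). Whether these levels of Ptgs2 and of cytokines were present before the 6 h digestion was not tested.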

How the data were processed

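The authors deposited 1 merged matrix of raw UMI counts of 32285 genes in 24203 barcodes (257619292 UMIs), not normalised. Per the labels' protocols, reads were aligned and counted with Cell Ranger 7.0.0, and per the submitters' processing notes the build was mm10. The sources used here do not say whether intronic reads or strand were used in counting, and 0 columns of other samples were set aside. Kept cells hold 215888825 UMIs. Scrublet (scanpy 1.11.5) called 2 of 7160 (set 1) and 1 of 8014 (set 2) as doublets, rates too low to have worked, so doublets remain. The sets shared 40 barcodes, 14 of them among kept cells.

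Counts scaled to 10000 per cell, 2000 variable genes, 30 components (rounded to 4 decimals), 15 neighbours and Leiden clustering (leidenalg 0.10.2, resolution 1, seed 1) gave the clusters. The 10 genes, the pathway lists, collagens, mitochondrial, ribosomal, Y-linked genes and Xist were left out of clustering. A cluster was named where the median marker log2 ratio reached 1 and 3 markers detected in 10% of its cells or more did so too, with 10 CPM added to both sides. The cluster led by Dnah12 was left unnamed after its genes were seen. Intervals used scipy 1.17.1 (exact Poisson, Clopper-Pearson and conditional binomial, 95%), in python 3.11.15 with numpy 2.4.6 and pandas 2.3.3. Cell types rest on rebuilt names, not on the authors' own. The call procedure was tested on simulated data.

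The genes and lists were chosen with earlier results of these data known. Genes named are the 10, the genes of the 4 prostanoid lists with at least 100 UMIs, the 5 genes of highest class level of each other list, the 3 most alike per gene with at least 1000 UMIs, and the 5 leading genes of a cluster called within its class. Genes that lead a class, and Gm17173, Ttc33, 1110018N20Rik and Gm14291 as overlapping genes, were named outside that rule. Some genes that the rule names are not reported here. Of 99 list genes, 96 were in the matrix. Of the gene IDs, 32235 were found in GENCODE M21, which gave coordinates, and the 300-base promoters are from RefSeq. Alternatives varied the cell filters, clustering, naming, barcode sets, levels, call rule and thinning depth.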

Additional observations from a re-analysis of the deposited data

Results flagged for a closer look

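The 9032 barcodes that the comparisons left out also held UMIs of each of the 10 genes, above the 0.0719 CPM that 3 UMIs over them would give. Of these barcodes 8101 were under the minimum of genes or UMIs, 928 had over 10% mitochondrial UMIs and 3 were called doublets. Together they held 41730467 UMIs, with a median of 3107 UMIs and 2.89% mitochondrial UMIs per barcode. Ptgs2 was at 19.3 CPM (807 UMIs), Ptgis at 14.4 CPM (600 UMIs) and Hpgd at 5.85 CPM (244 UMIs). Ptges was at 1.77 CPM (74 UMIs), Ptger4 at 1.65 CPM (69 UMIs), Ptgs1 at 1.56 CPM (65 UMIs) and Ptger3 at 1.08 CPM (45 UMIs). Ptgir was at 0.599 CPM (25 UMIs), Ptger2 at 0.479 CPM (20 UMIs) and Ptgds at 0.168 CPM (7 UMIs). Which cell classes these barcodes belong to was not determined.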

How the results depend on the processing

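The 29 calls of higher by class numbered 21 to 33, and the 114 calls of lower 93 to 123, under all alternatives run. All 10 peak classes were kept by other seeds, centring per set or keeping the 10 genes in clustering, but 5 with 15 components and 5 without barcode set 1 (5 to 9 leaving out a set). The peaks of Ptgs2 and Ptges moved at both other resolutions, and that of Ptgis at resolution 2 and with at least 1000 genes and 2000 UMIs. The 23 calls within classes became 9 with at least 200 genes and 500 UMIs, 13 at resolution 0.5, 14 to 15 leaving out a set, 14 at a ratio of 3, and 42 with no UMI minimum. With 15 components the synovial lining ratios turned to 1.16 for Ptgs2 and 1.82 for Ptgis, and the Ptgs1 peak moved to granulocyte progenitor-like cells. The cause was not tested. For single genes, calls of higher by class and the synovial lining calls of lower were followed over settings in which the class was present. The other calls of lower were not followed singly. Of the values followed, 575 kept direction and call, 34 lost the call and 2 reversed direction. Within classes 126 values kept the call and 35 lost it, over settings that kept the clusters. A call could also be lost through the UMI minimum or the interval while its ratio stayed above 2. Leaving out the 5% highest doublet scores, or the top cell of each class, were alternatives chosen after seeing the data. Shares of cells with a UMI at 2000 UMIs, 1000 UMIs and without thinning were 20.9, 12.0 and 58.2% (Ptgs1, synovial lining), 66.4, 53.6 and 75.5% (Ptgs2, monocyte or dendritic-like), 19.6, 11.8 and 36.4% (Ptges, same class), 54.5, 36.9 and 89.8% (Ptgis, tenocyte or ligament fibroblast-like), 24.7, 11.4 and 52.5% (Ptger3, synovial lining) and 7.48, 2.73 and 24.5% (Ptger4, monocyte or dendritic-like). Unthinned, Hpgd was in 18.3% of the Dnah12-led cluster, and Ptger2 in 17.4% and Ptgir in 20.3% of T or NK cell-like cells. No paired analysis was possible because no column carries a replicate number or genotype. Depth limits values from few UMIs, such as those of Ptgds (392 UMIs) and Ptger2 (502 UMIs).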

Other observations

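Lipoxygenases and leukotriene synthases also use arachidonic acid, and their RNA was read from a list. Over all genes tested, 10.4% were called higher and 56.9% lower in neutrophil-like cells. These shares were 3.92% and 35.9% in the Cxcl5-led cluster and 7.79% and 21.7% in the synovial lining class. They were 9.53% and 45.2% in macrophage-like and 8.32% and 33.4% in monocyte or dendritic-like cells. Of 7 leukotriene and lipoxygenase genes tested, none was called higher and all 7 lower in both the Cxcl5-led cluster and synovial lining fibroblast-like cells, while 4 were called higher and 3 lower in neutrophil-like cells. In macrophage-like cells 3 were called higher (Alox5ap, Ltc4s and Cysltr1) and 3 lower, and in monocyte or dendritic-like cells 2 higher (Alox5ap and Cysltr1) and 3 lower. Alox5ap, which presents arachidonic acid to 5-lipoxygenase, had 605 CPM in neutrophil-like cells, and Ltb4r1, a leukotriene B4 receptor, 248 CPM. Lta4h, which makes leukotriene B4, had 311 CPM in granulocyte progenitor-like cells. Alox5, 5-lipoxygenase itself, had 138 CPM in mast cell-like cells, and Ltc4s, leukotriene C4 synthase, 112 CPM in macrophage-like cells.

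Of 11 cyclic AMP response genes, none was called higher and 1 lower in the Cxcl5-led cluster (3.92% and 35.9% of all genes). In monocyte or dendritic-like cells 4 were called higher and 3 lower (8.32% and 33.4% of all genes). In mast cell-like cells 5 were called higher and 2 lower (6.75% and 25.2% of all genes). Pde4d (7231 CPM), Nr4a3 (891 CPM) and Crem (605 CPM) were highest in mast cell-like cells, Pde4b in monocyte or dendritic-like cells (407 CPM) and Areg in macrophage-like cells (319.9 CPM). The dissociation genes of highest level were Hspb1 (3352 CPM), Hspa1b (3181 CPM) and Hspa1a (3173 CPM) in endothelial-like cells, Ier3 in mast cell-like cells (1868 CPM) and Jun in tenocyte or ligament fibroblast-like cells (1032 CPM).

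The barcode sets differed most evenly in Ptges. Among the 15 classes with at least 20 Ptges UMIs, the level was higher in set 1 in 13 and in set 2 in 2, with a median log2 ratio of set 1 to set 2 of 0.97. For Ptgs2 the counts were 11 and 9 of 20 classes (median 0.12), for Ptgis 8 and 12 of 20 (median -0.16), for Hpgd 5 and 7 of 12 (median -0.53) and for Ptgs1 10 and 4 of 14 (median 0.32). The sources used here do not say what separates the sets.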
